A study of Mus musculus with 12 samples.

Results

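The insulin and insulin-like growth factor (IGF) axis was followed through its receptors Insr, Igf1r and Igf2r, its ligands Igf1 and Igf2, and its receptor substrates Irs1 and Irs2. These genes were chosen by name, and every probe that carried a name in all 12 files was taken. Probes were found for 6 of the 7 genes, among 20464 genes that could be given a value, and Irs2 was not analysed here. The data are array comparative genomic hybridizations, which measure DNA copy number and not expression. Each of 12 arrays held Cy5-labelled DNA of a liver tumor together with Cy3-labelled DNA from uninvolved liver of the mouse that bore it, taken at a distance from the tumor, with no dye swap, so each tumor was measured once.

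All mice were Mdr2-KO mice on the FVB background (FVB.129P2-Abcb4 tm1Bor). They lack Abcb4, the canalicular phospholipid transporter, in the whole body, and develop chronic cholestatic inflammation and later hepatocellular carcinoma. The 6 post-PHx tumors came from 9-month-old mice (4 males and 2 females) that had undergone 70% partial hepatectomy (PHx) at 3 or 6 months of age, and the labels do not say which age applies to which mouse. The 6 spontaneous tumors came from unoperated mice, namely 2 males that were 14 and 4 females that were 13 months old. Operation and age at collection therefore cannot be told apart. The tumors were chosen by the authors for similar size and differentiation. The arrays stood on 3 slides of 4. Slide 1 held PHx1M to PHx4M, slide 3 held Spon1M to Spon4F, and only slide 2 held both groups, with PHx5M, PHx6F, Spon5F and Spon6F.

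Insulin binds its receptor Insr, and Igf1 and Igf2 bind Igf1r, and both receptors are tyrosine kinases that pass the signal through Irs1 and Irs2 to PI3K, Akt and mTOR. Igf2r, the cation-independent mannose-6-phosphate receptor, binds Igf2 and delivers it to lysosomes. In the adult liver, hepatocytes secrete most of the circulating Igf1, respond to insulin through Insr and carry little Igf1r, while Igf2 is imprinted, is expressed in the fetal liver and is often re-expressed in liver cancer.

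The value of a gene in a tumor is the mean log2 ratio of tumor over own liver across its own probes and the 10 probes on either side, with each array centred on the median of its autosomes. A value of 0 means the same amount of DNA as in the liver of that mouse, and 0.4 is the absolute mean log2 ratio that the study's methods set as the filter for an aberration. Positions are on the mouse build mm8 as given in the files. Whether a probe lies in an exon or an intron was not analysed here. Each array had 41081 to 42160 usable probes, and neighbouring probes of an array scattered by 0.147 to 0.265 on the log2 scale.

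Insr, the insulin receptor, was the only member that passed the filter in any tumor. Its 2 probes lie at chr8:3200972-3248210, at the proximal start of the chromosome, where just 1 probe precedes them. Its window thus held 13 probes over 0.351 Mb, of which 12 were usable in PHx1M and Spon6F. The mean log2 ratio of Insr in the post-PHx tumors was highest in PHx3M at 1.22, followed by PHx4M at 0.80, PHx1M at 0.50 and PHx2F at 0.47, and lowest in PHx6F at 0.14 and PHx5M at 0.13. In linear terms, PHx1M carried 1.42 times, PHx2F 1.39 times, PHx3M 2.33 times and PHx4M 1.74 times the DNA of the matched liver at this locus. In the spontaneous tumors it was 0.02 in Spon1M, -0.06 in Spon2M, 0.11 in Spon3F, -0.01 in Spon4F, 0.08 in Spon5F and 0.14 in Spon6F. The tumors PHx1M to PHx4M lay above every spontaneous tumor, whereas PHx5M and PHx6F lay within the spontaneous range, so the groups overlapped. The standard errors over the probes of a window were 0.034 to 0.078 for Insr.

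**Figure D1:**
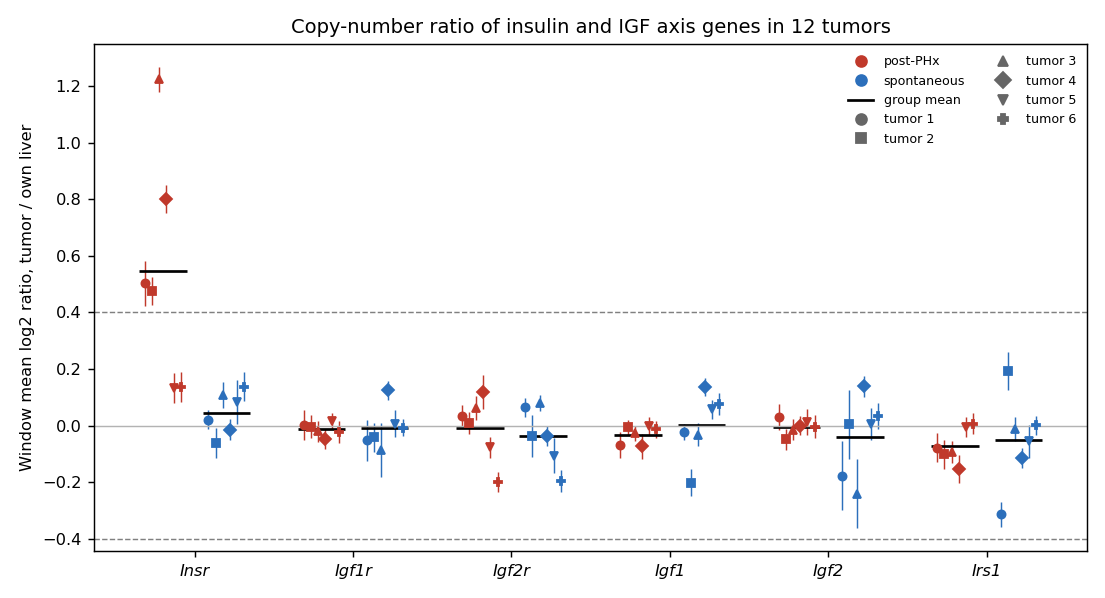
Window mean log2 ratio of tumor over own liver (vertical axis) for the 6 genes with probes (horizontal axis), with 1 point per tumor, red for post-PHx and blue for spontaneous tumors. Bars are standard errors over the probes of the window, black lines are group means and dashed lines mark log2 ratios of 0.4 and -0.4. Insr passed 0.4 in 4 post-PHx tumors (0.47 to 1.22) and no other gene reached either dashed line.

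Over the group, the mean log2 ratio of Insr was 0.54 ± 0.42 (SD, n = 6) in post-PHx and 0.05 ± 0.08 (SD, n = 6) in spontaneous tumors. Of all genes tested, 86 (0.42%) had a higher post-PHx mean. In the limma fit over all genes the post-PHx mean of 0.54 had a standard error of 0.11, pooled over both groups, and an unadjusted p of 0.00023. Its Benjamini-Hochberg adjusted p over 20464 genes was 0.313. With the post-PHx arrays alone the standard error was 0.15, with a limma unadjusted p of 0.0078 and an adjusted p of 0.103. The difference between the groups was 0.50 (SE 0.15) with a limma adjusted p of 0.681, and the two-sided exact permutation test for Insr alone gave p = 0.0065. Insr was looked at with earlier results known, so the unadjusted values describe it and do not call it. No gene passed an adjusted p of 0.05 in any of the 3 comparisons (0% of 20464 genes), although at an unadjusted p under 0.05 the fit held 900 genes (4.4%) above and 510 (2.49%) below liver in the post-PHx tumors, and 816 genes (3.99%) above and 2569 (12.6%) below liver in the spontaneous tumors. For the group difference these were 1237 genes (6.04%) higher and 67 (0.327%) lower in post-PHx tumors. The methods' t-test, run on the same values, called 0 genes after adjustment and 1183 before it.

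**Figure D2:**
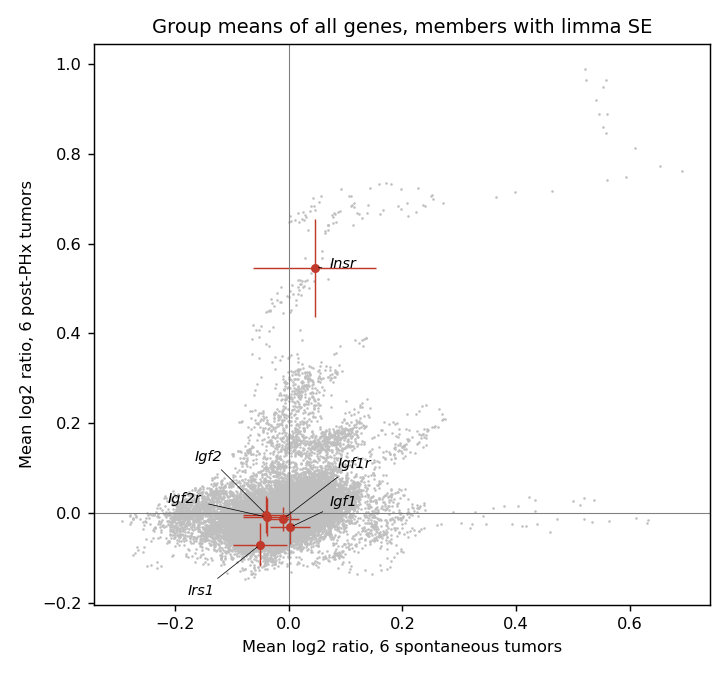
Mean log2 ratio of the 6 post-PHx tumors (vertical axis) against that of the 6 spontaneous tumors (horizontal axis) for all 20464 genes (grey), with the 6 members in red and their limma standard errors as bars. Insr (0.54 and 0.05) lies among the genes with the highest post-PHx means, with 86 genes above it, and the other members lie near 0 on both axes.

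The 4 gains of Insr all lay on slide 1, and slide and group cannot be told apart for them. The paper states that the array maps of these 4 tumors, PHx1M to PHx4M, had appeared in an earlier publication. On slide 1 the mean log2 ratio of Insr was 0.75 ± 0.35 (SD, 4 post-PHx tumors). On slide 2, which held both groups, it was 0.13 in the 2 post-PHx and 0.11 in the 2 spontaneous tumors. The difference was therefore 0.02 within slide 2. With slide as a block it was the same 0.02 (limma adjusted p = 0.99998). That is not a second result, since slides 1 and 3 each held a single group and only slide 2 informs this contrast. Of the 2 post-PHx tumors on slide 2, PHx5M had 0 genes at or above 0.4 and PHx6F had 211 (1.03%). With the sex of the mouse in the model the difference was 0.46 (limma adjusted p = 0.255). Every array compared the tumor with liver of the same mouse. Beyond 20 Mb from Insr the mean log2 ratio of chromosome 8 was 0.01 to 0.04 in the tumors on slide 1. It was 0.04 to 0.12 on slide 2 and -0.04 to 0.03 on slide 3.

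The gain was not confined to Insr. Segmentation of the ratios along chromosome 8 placed Insr in a gained stretch that began at the first probe of the chromosome in each of the 4 tumors. In PHx1M the stretch spanned 5.54 Mb (chr8:3151837-8691033) with 86 probes at 1.40 times the liver's DNA, and in PHx2F it spanned 5.34 Mb (to 8495028) with 80 probes at 1.34 times. In PHx3M it spanned 3.07 Mb (to 6221323) with 78 probes at 2.15 times, and in PHx4M 1.94 Mb (to 5093321) with 74 probes at 1.64 times. Insr and its neighbours Arhgef18, Pex11c and Retn (the adipokine resistin) were thus part of a shared stretch of 1.94 Mb. Probes were sparse beyond it, with 3 probes from 2 to 3 Mb and 2 probes from 3 to 5 Mb from Insr, so the distal ends are approximate.

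Beyond the stretch, the tumors differed. From 8 to 12 Mb from Insr the mean log2 ratio was still 0.70 (SE 0.016) in PHx3M and 0.28 (SE 0.017) in PHx1M, 0.22 (SE 0.018) in PHx4M, and 0.00 (SE 0.015) in PHx2F. From 12 to 20 Mb it was 0.08 in PHx3M, -0.03 in PHx1M, -0.03 in PHx4M and 0.03 in PHx2F. PHx3M thus showed a step down from its highest level near Insr to a lower plateau before it returned near 0, while PHx2F had no ratio above its surroundings past the first stretch. In the other 8 tumors Insr lay in segments of 10.1 to 128.9 Mb with mean log2 ratios between -0.03 and 0.09.

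**Figure D3:**
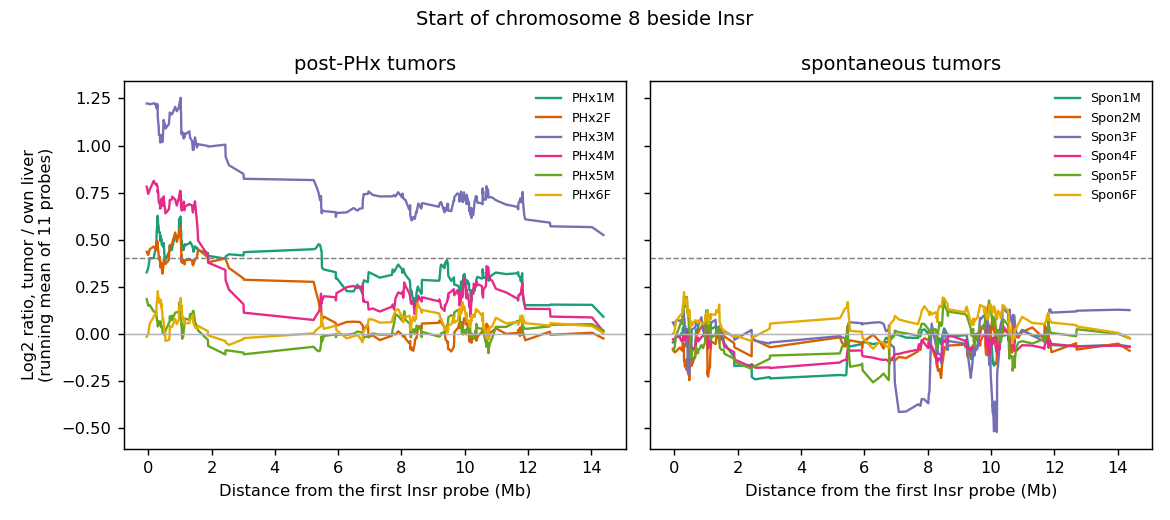
Running mean over 11 probes of the log2 ratio of tumor over own liver (vertical axis) against the distance from the first Insr probe in Mb (horizontal axis), with 1 line per tumor, post-PHx on the left and spontaneous on the right; the dashed line marks 0.4. PHx1M to PHx4M start above or near the dashed line, PHx3M holds a second plateau near 0.70 up to 12 Mb, and the spontaneous tumors start near 0.

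Insr's own probes gave the same picture in 3 of the 4 gained tumors. Their mean was 0.43 in PHx2F, 1.16 in PHx3M and 0.84 in PHx4M, but 0.14 in PHx1M, where the flanking probes stood at 0.58. In PHx5M the order was the reverse, with 0.39 for the own probes and 0.09 for the flanking probes. A mean over 2 probes thus differed from its surroundings in these tumors, and in PHx5M 1 of the 2 Insr probes was at 0.59 and the other at 0.19. With own probes alone the post-PHx mean of Insr was 0.49 with a limma adjusted p of 0.0439, in a fit that called 540 genes.

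A count over all 6 genes gave 4 of 36 gene-tumor pairs at or above 0.4 in the post-PHx tumors, all of Insr, against 2.21% of the pairs of all genes. In the spontaneous tumors it gave 0 of 36, against 1.53%. At or below -0.4 it gave 0 of 36 in both groups, against 0% and 2.02%. At least 1 gain was held by 9.54% of all genes in the post-PHx and by 8.5% in the spontaneous tumors. A gain in at least 4 post-PHx tumors was held by 97 genes (0.474%), Insr included, and in at least 4 spontaneous tumors by 0 genes (0%). Of the 97 genes, 51 lay on chromosome 18, 24 on chromosome 8 and 22 on chromosome 5. Groups that did not overlap were found for 61 genes (0.298%), and Insr was not among them.

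Igf1r, the receptor of Igf1 and Igf2, has 3 probes at chr7:67940978-68021868. Its window mean log2 ratio ranged from -0.05 to 0.02 in post-PHx tumors (median -0.01) and from -0.09 to 0.12 in spontaneous tumors (median -0.02). The highest value was that of Spon4F, in which the whole of chromosome 7 formed a single segment at 0.14. The group difference was -0.00 (SE 0.04), with a limma adjusted p of 0.997.

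Igf2r has 2 probes at chr17:12559990-12606381. Its log2 ratio was 0.03, 0.01, 0.06, 0.12, -0.08 and -0.20 in PHx1M to PHx6F, and 0.06, -0.04, 0.08, -0.04, -0.11 and -0.20 in Spon1M to Spon6F. The lowest values in both groups belonged to tumors on slide 2. The segment around Igf2r stood at -0.10 in PHx5M, -0.10 in PHx6F and -0.14 in Spon6F, but at 0.05 in Spon5F, and in Spon2M of slide 3 it stood at -0.11. These segments covered 19.5 to 53.9 Mb. The group difference of Igf2r was 0.03 (SE 0.06), with a limma adjusted p of 0.982.

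Igf1, the main IGF made by hepatocytes, has 2 probes at chr10:87318061-87333000. Its log2 ratio lay between -0.07 and 0.00 in post-PHx tumors and between -0.20 (Spon2M) and 0.14 (Spon4F) in spontaneous tumors. In Spon4F all of chromosome 10 formed a segment at 0.16, and in Spon2M a segment of the whole chromosome stood at -0.04, above the window itself. The group difference was -0.03 (SE 0.05), with a limma adjusted p of 0.982.

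Igf2, the fetal growth factor, has 2 probes at chr7:142460608-142465382, near the distal end of chromosome 7. Its log2 ratio was -0.18 in Spon1M, 0.00 in Spon2M, -0.24 in Spon3F, 0.14 in Spon4F, 0.01 in Spon5F and 0.03 in Spon6F, and between -0.05 and 0.03 in post-PHx tumors. In Spon3F a segment of 3.81 Mb around Igf2, up to the end of the chromosome, stood at -0.28, and without the 2 probes of the window at an absolute log2 ratio of 1.5 or more the mean was -0.07. The group difference was 0.04 (SE 0.06), with a limma adjusted p of 0.982.

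The proximal of the 2 Igf2 probes behaved unlike its neighbours on slide 3. Its log2 ratio was -2.66 in Spon1M, 2.28 in Spon2M, -1.68 in Spon3F and 0.38 in Spon4F, and between -0.09 and 0.17 on the 8 arrays of slides 1 and 2. The second Igf2 probe, at chr7:142465323, lay between -0.30 and 0.15 on all 12 arrays. On slide 3 the signals of the proximal probe were low in the liver channel, the tumor channel or both. Its liver signal was 301 in Spon2M against 1373 in Spon1M and at least 1200 on slides 1 and 2, and its tumor signal was 218 in Spon1M and 153 in Spon3F against 1448 in Spon2M. In Spon3F and Spon4F both channels were low, with liver signals of 480 and 291. Without the own probes, the flanking probes gave -0.06 in Spon1M, -0.09 in Spon2M and -0.18 in Spon3F.

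Lone probes of this kind were common on 3 arrays of slide 3. Probes with an absolute log2 ratio of at least 1.5 whose neighbours both stayed under 0.5 numbered 225 in Spon1M (all low), 233 in Spon2M (232 high) and 762 in Spon3F (all low), against 0 in Spon4F and 1 to 30 on each of the other 8 arrays. Spon1M and Spon2M shared 149 of them (66.2% and 63.9% of each), and all 3 arrays shared 100. The Igf2 windows of Spon1M to Spon3F each held the proximal Igf2 probe at such a ratio, and that of Spon3F held a second probe past 1.5. Why these probes differed was not tested.

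**Figure D4:**
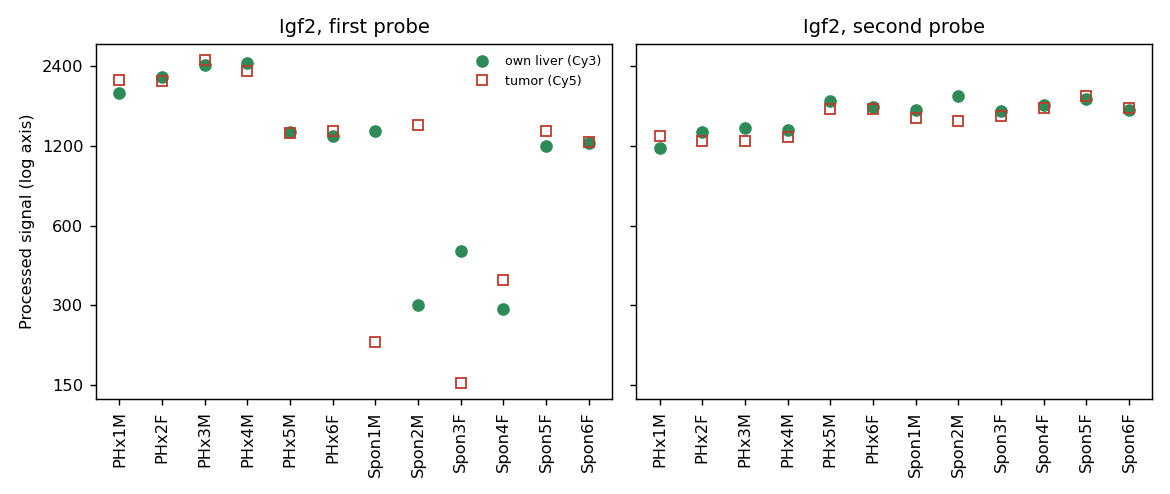
Processed signal (vertical axis, log scale) of the 2 Igf2 probes on each of the 12 arrays (horizontal axis), with filled circles for the own liver (Cy3) and open squares for the tumor (Cy5). The first probe is low in the tumor channel of Spon1M (218), in the liver channel of Spon2M (301) and in both channels of Spon3F (480 in liver, 153 in tumor) and Spon4F, whereas the channels of the second probe stay close on every array.

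Irs1, a docking protein that links both receptors to PI3K, has 2 probes at chr1:82115710-82150901. Its log2 ratio ranged from -0.15 to 0.01 in post-PHx tumors and was -0.31 in Spon1M and 0.19 in Spon2M among the spontaneous tumors. In Spon1M, Irs1 lay in a segment of 53.6 Mb at -0.31, and in Spon2M in one of 21.5 Mb at 0.20 on a chromosome whose median was 0.28. The distal Irs1 probe was below 0 on 11 of 12 arrays, down to -0.61 in PHx4M. The group difference of Irs1 was -0.02 (SE 0.07), with a limma adjusted p of 0.990.

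The order of the post-PHx means was Insr (0.54), Igf2 (0.00), Igf2r (-0.01), Igf1r (-0.01), Igf1 (-0.03) and Irs1 (-0.07), and below Insr no neighbours in this order differed by more than the larger of their standard errors. In the spontaneous tumors the means of all 6 genes lay between -0.05 and 0.05, and the spread over tumors (SD 0.07 to 0.17) was larger than any of these means. Across the 12 tumors, Igf1r and Igf2, both on chromosome 7, had a Pearson r of 0.79, and Insr had r between -0.26 and 0.48 with each of the other members. These coefficients describe 12 tumors whose ratios share arrays, slides and centring. Those with Igf2 also include the windows of Spon1M to Spon3F that held its extreme proximal probe.

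The genes on another chromosome whose window means followed each member most closely over the 12 tumors were found among all genes. For Insr this was AK029597 on chromosome 7 (r = 0.86), next to the zinc finger genes Zfp235 and Zfp180. For Igf1r it was Fabp7 on chromosome 10 (0.95), for Igf2r Snapc4 on chromosome 2 (0.87), for Igf1 Morc4 on chromosome X (0.96), for Igf2 Stk11 on chromosome 10 (0.96) and for Irs1 Setdb1 on chromosome 3 (0.90). With 20464 genes to choose from, high coefficients arise in any case, and no test was attached to them.

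The wider pathway was read from a list of 61 genes, of which 57 had probes. In post-PHx tumors 7 of 342 gene-tumor pairs (2.05%) were at or above 0.4 and none at or below -0.4. In spontaneous tumors 1 pair (0.292%) was gained and 6 (1.75%) were lost. Over all genes the corresponding shares were 2.21% and 0%, and 1.53% and 2.02%. No listed gene passed the filter in 3 tumors of a group. The median of the group means of the listed genes was 0.01 in post-PHx and -0.01 in spontaneous tumors, against 0.00 and -0.01 over all genes.

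Among receptors and binding proteins, Ghr, the growth hormone receptor that drives hepatic Igf1 production, stood at 0.46 in PHx2F and 0.39 in PHx4M. Igfbp7, an IGF binding protein relative, stood at 0.42 in PHx2F. Among the kinases, Akt2, the Akt form that carries the insulin signal in liver, reached 1.05 in PHx3M (2.07 times the liver's DNA). PHx3M was also the tumor with the highest Insr value. Akt2 was 0.24 in PHx1M, 0.29 in PHx4M and -0.07 in PHx2F, the other tumors with an Insr gain. Its 1 own probe lies at chr7:27321103. On the same chromosome, AK029597 (chr7:23840054) stood at 1.17 in PHx3M, 0.33 in PHx1M, 0.31 in PHx4M and 0.04 in PHx2F. Akt1 was 0.44 in Spon2M and -0.46 in Spon3F.

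Among the inhibitors and targets, gains past the filter were found in PHx4M. Ptpn1, a phosphatase that dephosphorylates Insr, was at 0.63, Trib3, an inhibitor of Akt, at 0.64, the gluconeogenic gene Pck1 at 0.60 and the glucose transporter gene Slc2a2 at 0.66. Ptpn1, Trib3 and Pck1 all lie on chromosome 2, and in PHx3M they stood just under the filter, at 0.39, 0.36 and 0.33. Values at or below -0.4 were found in Spon2M and Spon3F. Spon2M had the insulin gene Ins1 at -0.40 and Pappa, the protease that releases IGFs from binding proteins, at -0.41. Spon3F, the array with the most lone low probes, had Pik3r2, a regulatory subunit of PI3K, at -0.79, Pck1 at -0.55, Akt1 at -0.46 and Akt2 at -0.42. These 4 windows held 2 to 6 probes at an absolute log2 ratio of 1.5 or more, and without them the means were -0.24 for Pik3r2, -0.18 for Pck1, -0.26 for Akt1 and -0.19 for Akt2, none of which passed the filter. Likewise Akt1 in Spon2M fell to 0.22 without 3 such probes. The other listed windows past the filter held 0 such probes.

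In the remaining tumors the listed gene farthest from 0 stayed under the filter. It was Mtor at -0.22 in PHx5M, Pik3r2 at 0.12 in PHx6F, Igfbp2 at -0.33 in Spon1M, Akt1 at 0.37 in Spon4F, Mtor at -0.36 in Spon5F and Ins1 at -0.26 in Spon6F. In PHx1M it was Akt2, at 0.24.

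**Figure D5:**
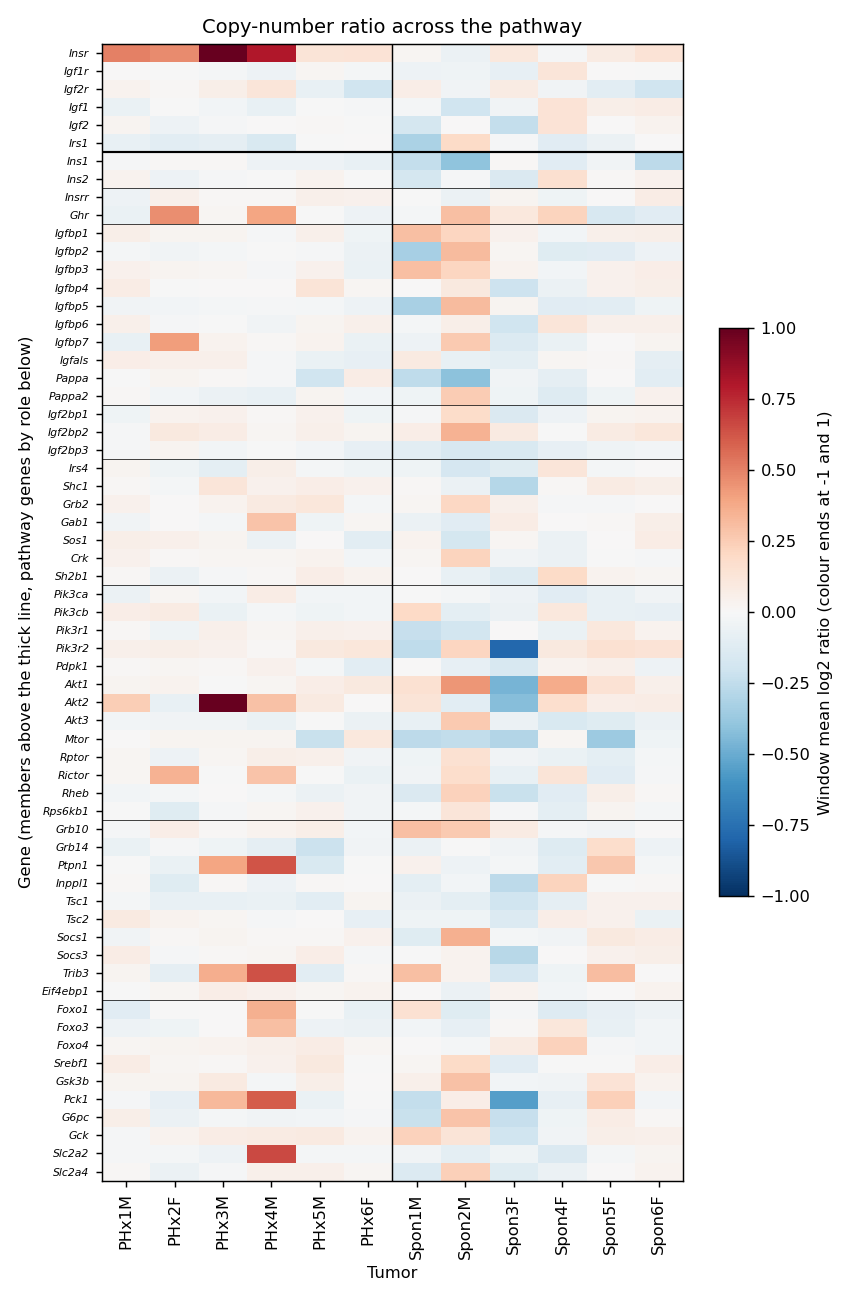
Window mean log2 ratio (colour, red higher and blue lower in the tumor, ending at -1 and 1) of the 6 members and 57 further pathway genes (rows) in the 12 tumors (columns), with post-PHx tumors left of the vertical line. The row of Insr is red in PHx1M to PHx4M, Akt2 is red in PHx3M (1.05), and the strongest blue is Pik3r2 in Spon3F (-0.79, or -0.24 without its 6 probes at an absolute log2 ratio of 1.5 or more).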

How the data were processed

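The authors hybridized AluI- and RsaI-digested DNA to 4x44K mouse arrays and deposited Feature Extraction 10.5.1.1 output, 1 file per array. The deposited log10 ratios (red tumor over green liver) were used, as were the deposited signal intensities, from which the authors' software had subtracted background and scaled the dyes. The ratios were multiplied by log2(10), outlier spots (108 to 1218 of 43020 per array) and 169 spots without a position were dropped, replicate spots were averaged per probe, and arrays were centred on the autosomal median. Arrays carry no counts, so their number limits the precision.

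The members and the pathway list were chosen with earlier results of these data known. Named were all members, pathway genes past 0.4 in 3 tumors of a group, the gene farthest from 0 in each tumor, and the genes on another chromosome most correlated with a member. The other pathway genes past 0.4 were named after their values were seen, and neighbours of Insr serve as landmarks. Older symbols (Frap1 for Mtor, for example) were looked up as RefSeq synonyms (GRCm38.p6), and H19, Irs3, Phlpp1 and Gsk3a were not analysed here, and 1 further pathway gene, outside the list of 61 and its counts, is not reported here. Group means and differences were fitted with limma 3.58.1 (R 4.3.3, all 12 arrays, Benjamini-Hochberg adjustment over all genes), segments with a penalised least-squares fit of at least 5 probes, in Python 3.11.15. Both were tested on simulated independent normal noise with known shifts. That noise had equal spread in both groups and no lone extreme probes, so neither unequal spread nor lone probes were covered. Alternatives were normexp correction (offset 50), other centrings, probes, windows (own probes, 5 or 20 flanking probes), filters of 0.25 and 0.6, outlier spots kept, each group's arrays alone, sex, slide or tumor number in the model, the methods' t-test, and each tumor left out. Means without probes at an absolute log2 ratio of 1.5 or more were added after seeing the data.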

Additional observations from a re-analysis of the deposited data

Results flagged for a closer look

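Of 24 sets of 6 tumors (own-probe and window means of 6 genes in both groups), 2 held a tumor far from the other 5 by Dixon's criterion, and chance flags about 1 set in 20. The mean of the 2 Insr probes was -0.18 in Spon5F, with a gap of 0.664 of the range, while its window mean was 0.08. The mean of the 2 Igf2r probes was 0.34 in PHx4M, with a gap of 0.704 of the range, while its window mean was 0.12. The distal Igf2r probe alone was at 0.77 there, with a liver signal of 164 against 350 to 578 on the other arrays.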

How the results depend on the processing

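Across the alternatives the post-PHx mean of Insr kept its direction (0.41 to 0.63, limma adjusted p 0.0439 to 0.726), as did the group difference (0.02 to 0.58, limma adjusted p 0.255 to 0.99998). Only own probes brought the post-PHx mean past the threshold (0.49), and the same setting turned the spontaneous mean of Insr to -0.0686. The exact permutation test left the group difference at 0.50 with an unadjusted p of 0.0065. Without PHx3M the post-PHx mean was 0.41 and the group difference 0.36. The group difference with slide as a block and within slide 2 alone, the latter chosen after seeing the data, was 0.02 for Insr, -0.0151 for Igf2 and 0.0278 for Irs1, the last pair with the sign turned. Both settings give the same estimate, since only slide 2 held both groups.

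The count of gained post-PHx gene-tumor pairs fell to 2 with a filter of 0.6. In spontaneous tumors own probes gave 1 gained and 3 lost pairs, and a filter of 0.25 gave 1 lost pair. With own probes the gained pair was Igf2 in Spon2M (0.99). The lost pairs were Igf2 in Spon1M (-1.38) and Spon3F (-0.89), and Irs1 in Spon1M (-0.42). These Igf2 means were carried by the proximal Igf2 probe, at 2.28 in Spon2M, -2.66 in Spon1M and -1.68 in Spon3F. Genes called in post-PHx tumors against liver rose from 0 to 5 with normexp and 540 with own probes. In spontaneous tumors they rose from 0 to 385 with centring on the mode, 797 with normexp and 848 with own probes. Leaving out each tumor in turn gave 0 to 607 in spontaneous tumors, the highest without Spon5F. The cause was not tested.

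No value of the other members passed the threshold under any alternative. The post-PHx mean of Irs1 stayed below 0 throughout, and own probes moved it from -0.07 to -0.20 (limma adjusted p = 0.121) and the spontaneous mean from -0.05 to -0.17 (0.160). Normexp moved the post-PHx mean of Igf2r from -0.01 to -0.09 (limma adjusted p = 0.309) and the spontaneous mean from -0.04 to -0.09 (0.175). Other values changed sign. Igf1 turned to 0.00 in post-PHx tumors with 20 flanking probes (0.000555) and to -0.02 in spontaneous tumors with normexp (-0.0157), and leaving out tumors moved the latter between -0.0244 and 0.0431. Igf1r in post-PHx tumors turned to 0.0045 with the window median, and in spontaneous tumors to 0.0395 with the median and 0.0095 with own probes; leaving out tumors gave -0.0358 to 0.00622. Its group difference turned to 0.0196 with 5 flanking probes, 0.0049 with the mode and 0.0059 with sex, and ranged -0.0188 to 0.0232 without single tumors. Igf2 in post-PHx tumors turned to 0.0336 with 5 flanking probes, 0.0025 with the mode and 0.0476 with normexp, and in spontaneous tumors to 0.0098 with normexp; without single tumors it ranged -0.0106 to 0.00514 and -0.0746 to 0.00116, and its group difference -0.00486 to 0.0709. Igf2r's group difference turned to -0.0013 with normexp and -0.0056 with sex, and without single tumors ranged -0.00236 to 0.0672 and its post-PHx mean -0.0342 to 0.0291. Without single tumors the group difference of Irs1 ranged -0.0731 to 0.0284 and its spontaneous mean -0.0989 to 0.0025.

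In all, 33 values turned sign, 10 counts moved by over 1.5 times and 2 values of Insr passed a threshold. These were its post-PHx mean with own probes (limma adjusted p = 0.0439) and its group difference in the exact permutation test. The p of 0.0065 from that permutation test is unadjusted and does not call Insr. The other 519 kept their direction and side of the threshold, or for counts stayed within 1.5 times, though their size could change, as that of the Insr difference did from 0.50 to 0.02 with slide as a block. The tumor numbers did not pair the tumors (correlations of deviations -0.17 to 0.55). With tumor number as a replicate block the difference of Insr stayed 0.50 (limma adjusted p = 0.571) and 0 genes were called. The planned comparison of Insr with Irs2 was not run, since Irs2 was not analysed here. Ratios of the members rest on 12 to 23 probes a window, 2 or 3 of them in the gene, and those of the pathway genes on 1 to 6 own probes (1 for Akt2, Ins1, Trib3, Pck1 and Pik3r2).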
